A study of Mus musculus with 14 samples.

Results

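The transmembrane mucins Muc1, Muc3, Muc4, Muc13 and Muc20 were followed in RNA-seq of mouse colon epithelium with and without Smad4, on water and after dextran sulfate sodium (DSS). The members are the 5 rows of the deposited gene table whose identifiers carry these symbols, out of 37680 genes. A gene was tested if it reached 10 counts in 3 or more of the 14 libraries. This left 15127 genes, all 5 members among them. The WT group on water had 4 libraries, the Smad4 KO group on water 4, the WT group after DSS 3 and the Smad4 KO group after DSS 3. The mice were 8 to 14 weeks old on a background enriched for C57/BL6. In the Smad4 KO mice both Smad4 alleles were floxed and deleted by a Cre recombinase under the Villin promoter, which acts in intestinal epithelial cells and was induced with tamoxifen (0.05 g/kg per day for 4 days). The methods state that controls were bred with the Cre transgene as well, and the labels call them wild type. The regimen drawn in the study gives tamoxifen to the Smad4 KO mice and not to WT, so the deletion and tamoxifen cannot be told apart here. The DSS groups drank 2.5% DSS, which damages the lining of the colon, for 3 days, and the other groups drank water. The epithelium was stripped from the whole colon with EDTA, and poly(A) RNA was sequenced. The labels number the replicates without tying them to animals, so p-values measure the spread between libraries, which may in part be technical.

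Transmembrane mucins are anchored in the apical membrane of epithelial cells and carry long extracellular stretches rich in serine, threonine and proline, to which O-linked glycans are attached. In the colon they form the glycocalyx on the brush border, beneath the secreted gel built from Muc2. Most are cleaved near the membrane, so that the glycosylated part can be shed while the membrane part remains, and the short cytoplasmic tails of several of them take part in signalling. Muc3 and Muc13 are the characteristic membrane mucins of mouse colon enterocytes. Muc1 and Muc4 are found more widely in wet epithelia and are known to associate with ErbB receptors, and Muc20, best known from kidney, has been reported to bind the receptor Met.

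The part of each gene model that encodes the glycosylated domain is shown first, because it decides what a count for these genes stands for. Positions are in mm9, and gene models are those of GENCODE M1. Muc1 (ENSMUSG00000042784) lies at chr3:89032979-89037303 on the plus strand with 2346 exon bases, and Muc3 (ENSMUSG00000037390) at chr5:137610794-137625994 on the minus strand with 1941. Muc4 (ENSMUSG00000079620) lies at chr16:32735972-32782477 on the plus strand with 11757 exon bases, and Muc13 (ENSMUSG00000022824) at chr16:33794123-33820020 on the plus strand with 3038. Muc20 (ENSMUSG00000035638) lies at chr16:32777505-32797521 on the minus strand with 4027. For each gene, the 20 consecutive codons richest in serine, threonine and proline were taken from its longest coding transcript. These codons are in capitals below and other codons are in lower case, and each stretch reads 5′ to 3′ on the coding strand.
Muc1: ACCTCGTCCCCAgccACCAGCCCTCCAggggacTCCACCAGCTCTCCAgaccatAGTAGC
Muc4: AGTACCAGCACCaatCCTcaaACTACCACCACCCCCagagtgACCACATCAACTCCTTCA
Muc13: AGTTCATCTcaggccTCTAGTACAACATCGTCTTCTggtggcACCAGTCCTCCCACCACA
Muc20: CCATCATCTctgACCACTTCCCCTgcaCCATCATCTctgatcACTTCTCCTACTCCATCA
Muc3: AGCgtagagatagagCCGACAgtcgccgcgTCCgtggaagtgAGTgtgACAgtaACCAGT
Gm3054: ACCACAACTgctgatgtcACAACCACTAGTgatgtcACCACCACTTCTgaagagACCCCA
The Muc1 stretch (chr3:89034240-89034299) held 15 such codons of 20, and those of Muc4 (chr16:32755224-32755283), Muc13 (chr16:33799021-33799080) and Muc20 (chr16:32794507-32794566) held 16 each. The richest stretch of the Muc3 model held 8. Over the whole coding sequence, serine, threonine and proline codons made up 43.99% of Muc1, 44.8% of Muc4, 38.0% of Muc13 and 43.4% of Muc20, against a median of 18.8% over 22737 genes. In the Muc3 model they made up 17.4%, at percentile 35.3 of these genes, whereas the other 4 mucins stood at percentile 99.7 or above. The Muc3 model of GENCODE M1 thus holds no stretch like those of the other members, and the annotation behind the counts is not given in the sources used here. A separate model of 243 exon bases, Gm3054 (ENSMUSG00000079174, chr5:137632985-137634856, minus strand), lies 6990 bases upstream of the Muc3 model on the same strand. Serine, threonine and proline codons made up 42.0% of it, and its richest stretch (chr5:137633033-137633092) held 13 of 20. Gm3054 was chosen after its values were seen, and its counts are given with those of Muc3.

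Total counts ran from 12882827 to 26087231 per library. Smad4 was read first as the check of the labels. It had 170, 182 and 174 CPM (counts scaled by library size after TMM normalization) in WT after DSS and 43.9, 40.4 and 42.8 CPM in Smad4 KO after DSS. On water, WT had 122, 159, 135 and 118 CPM, and the libraries labelled Smad4 KO had 158, 37.0, 46.8 and 35.1 CPM. Replicate 1 of the libraries labelled Smad4 KO on water thus had Smad4 in the range of WT, and the members' fold changes on water and in Smad4 KO are given with and without it. Markers of the epithelium were abundant, with summed levels of 11222 to 18205 CPM, and the markers of endothelium summed to 0.206 to 0.855 CPM. Leukocyte markers summed to 5.88 to 22.8 CPM over all libraries. On water, fibroblast markers summed to 0.896 to 4.06 CPM in WT and 2.98 to 24.8 CPM in the libraries labelled Smad4 KO.

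Muc3 and Muc13 were the abundant members, Muc1 and Muc4 were much lower and Muc20 was barely detected. Per kilobase of exon, Muc3 ranged from 942 to 1962 CPM/kb over the 14 libraries and Muc13 from 858 to 1295. Muc1 ranged from 11.4 to 55.7 CPM/kb, Muc4 from 7.64 to 21.8 and Muc20 from 0.0888 to 0.851. Muc3 was above Muc13 in 12 of 14 libraries, with a median ratio of 1.37, so these neighbours in the order did not separate. Their order rests on the exon length of the Muc3 model. In counts, Muc3 was above Muc13 only in WT water replicates 3 and 4. Muc13 was above Muc1 in 14 of 14 libraries (median ratio of the levels per kilobase 39.2), Muc1 above Muc4 in 14 of 14 (2.00) and Muc4 above Muc20 in 14 of 14 (33.7). Together the 5 genes held 0.409% to 0.767% of a library's counts, of which Muc3 held a median of 44.9% and Muc13 of 52.1%. Muc1 held 0.443% to 0.922% of the members' counts in WT on water and 0.787% to 1.58% in Smad4 KO on water. After DSS it held 0.962% to 1.18% in WT and 1.98% to 2.53% in Smad4 KO. These shares also depend on the levels of Muc3 and Muc13. Muc2, the gel-forming mucin of goblet cells, held 0.453% to 1.46% of a library's counts.

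**Figure D1:**
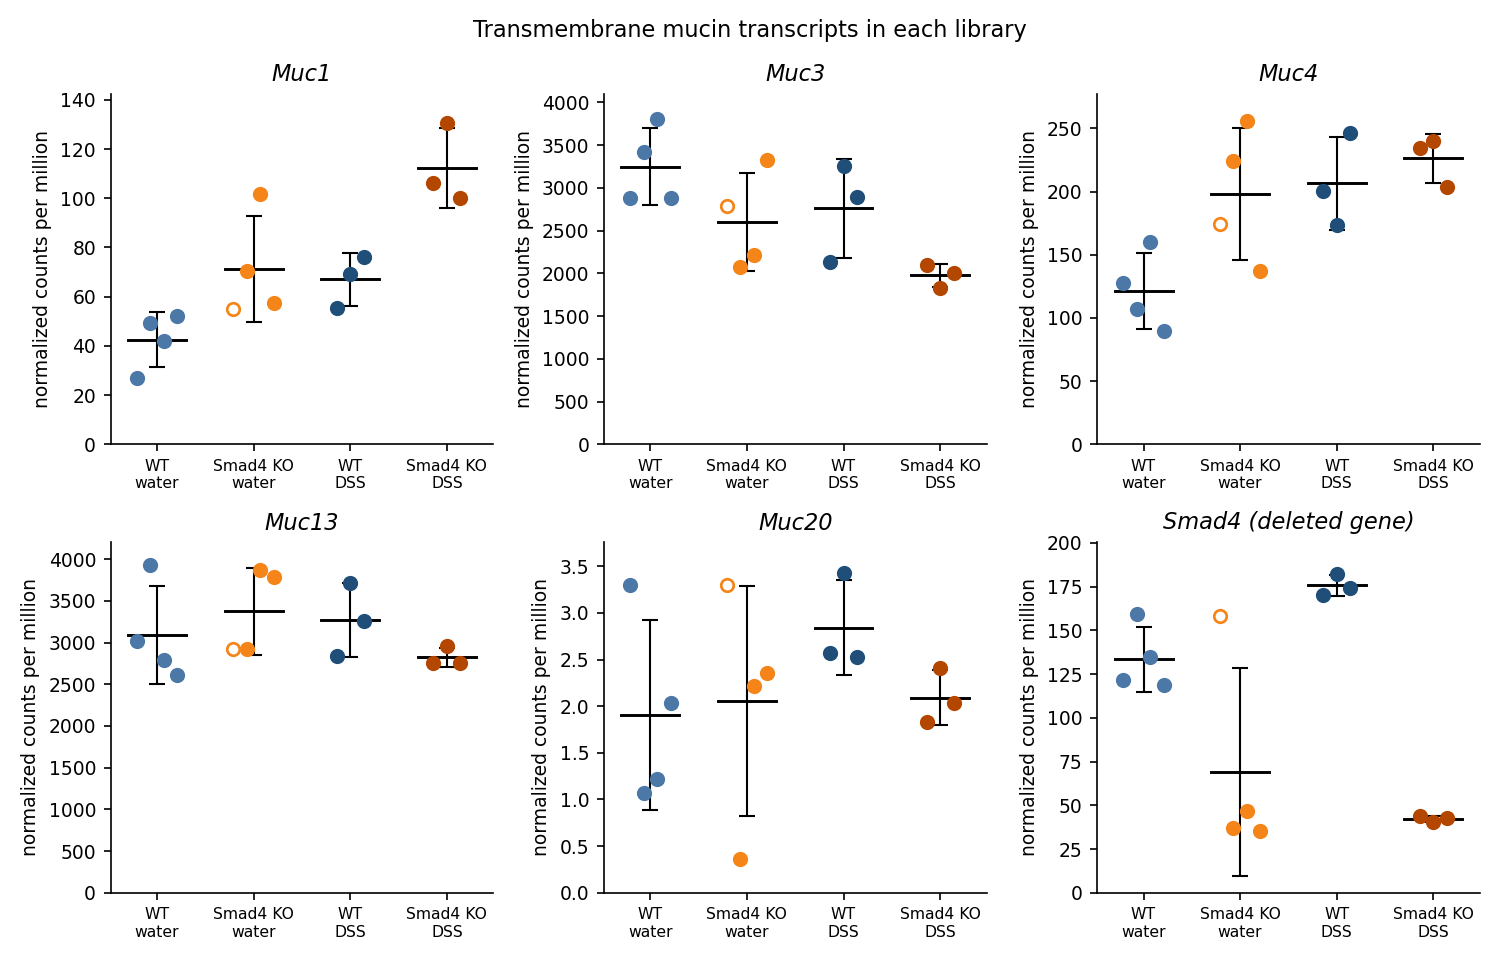
CPM (vertical axes, linear from 0) of the 5 transmembrane mucins and of Smad4 in each of the 14 libraries, by group. Points are libraries, horizontal lines group means and bars 1 SD, and the open point is replicate 1 of the libraries labelled Smad4 KO on water. The 3 Smad4 KO libraries after DSS had the highest mean level of Muc1 (112 CPM) and the lowest of Muc3 (1976 CPM).

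Muc1, whose cytoplasmic tail is phosphorylated and binds β-catenin, was the member that rose in the Smad4 KO epithelium after DSS. It had 106, 131 and 100.2 CPM in Smad4 KO and 55.3, 69.4 and 76.3 CPM in WT. Every Smad4 KO library was above every WT library. The level was 1.68-fold higher in Smad4 KO (95% confidence interval 1.36 to 2.07, log2 fold change 0.75, standard error, SE, 0.14, edgeR adjusted p = 0.031). In this comparison 1.04% of the 15127 genes passed the same threshold, 0.436% in the higher direction, and 10.4% had no overlap between the groups with Smad4 KO higher. Muc1 was thus 1 of 5 members called.

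The size of the Muc1 difference changed little with the analysis, but its call was lost in the model of all libraries and when any library other than WT replicate 3 was left out. Over 18 settings the log2 fold change ran from 0.63 to 0.85, and the adjusted p was below 0.05 in 11. Leaving out Smad4 KO replicate 1, 2 or 3 gave edgeR adjusted p-values of 0.091, 0.077 and 0.068, and leaving out WT replicate 1, 2 or 3 gave 0.057, 0.085 and 0.040. With all 14 libraries in 1 model, the log2 fold change was 0.75 and the edgeR adjusted p 0.73. In that model 0.0132% of genes were called.

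**Figure D2:**
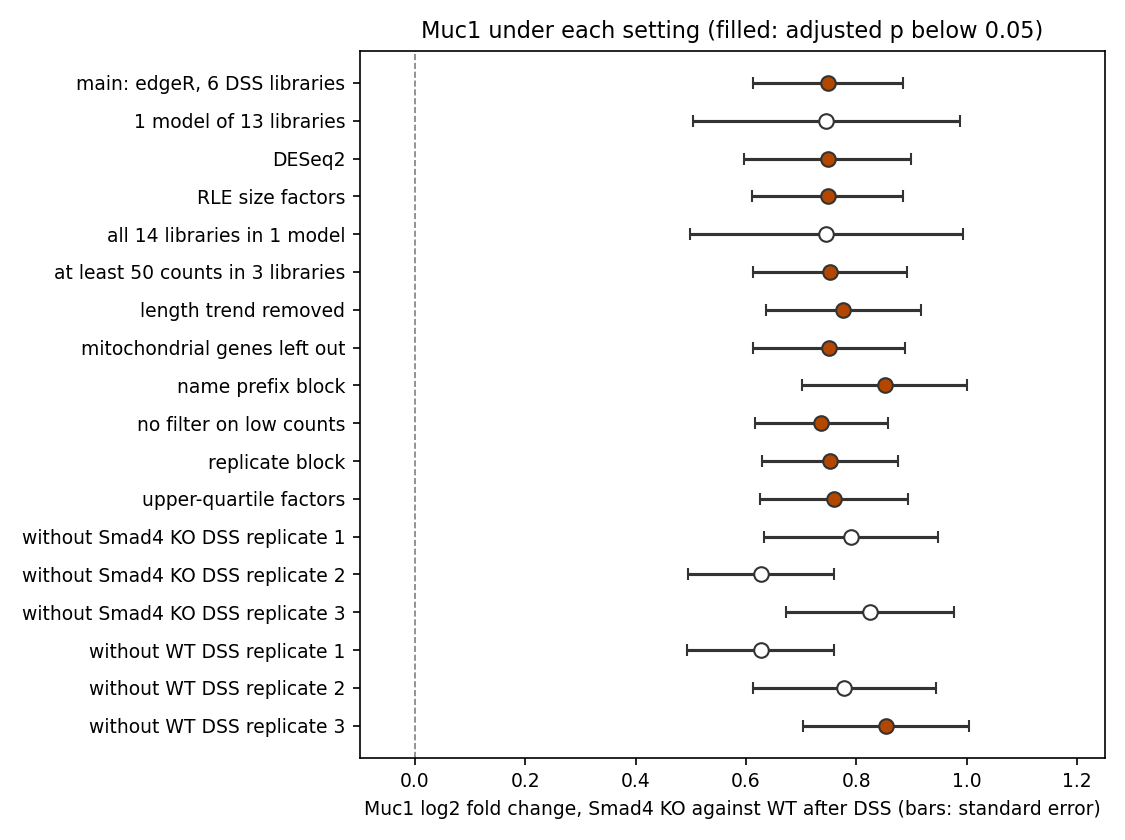
Log2 fold change of Muc1, Smad4 KO against WT after DSS (horizontal axis), with its standard error, under the main analysis and each alternative (vertical axis). Filled points have an adjusted p below 0.05, and all 18 lie between 0.63 and 0.85.

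The same order of the groups was seen on water without reaching the threshold. Muc1 had 54.8, 70.5, 101.7 and 57.4 CPM in the libraries labelled Smad4 KO and 26.8, 49.3, 42.2 and 52.0 CPM in WT. The groups did not overlap, which was true of 5.18% of genes in the higher direction, and the gap between the nearest libraries was narrow. The log2 fold change was 0.74 (SE 0.24, edgeR adjusted p = 0.16), and without Smad4 KO replicate 1 it was 0.85 (SE 0.26, edgeR adjusted p = 0.17). In this comparison 0.00661% of genes were called. With all 14 libraries in 1 model the edgeR adjusted p for Muc1 was 0.044, where 8.9% of genes were called, and without Smad4 KO replicate 4 it was 0.048, where 12.5% were. With a block for the letter prefix of the library names the log2 fold change was 0.39 (SE 0.26, edgeR adjusted p = 0.42).

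DSS against water gave Muc1 estimates of nearly the same size in WT and in Smad4 KO, neither of them called. In WT, all 3 DSS libraries were above all 4 water libraries, with a log2 fold change of 0.66 (SE 0.21, edgeR adjusted p = 0.12), in a comparison in which 12.8% of genes had no overlap with DSS higher. No gene passed the edgeR threshold in that comparison (0.0%), although 3680 genes (24.3%) had an unadjusted p below 0.05 and DESeq2 called 1777 (11.7%), Muc1 among them with a DESeq2 adjusted p of 0.049. In Smad4 KO, the DSS and water libraries overlapped, through water replicate 3 with 101.7 CPM, and the log2 fold change was 0.67 (SE 0.21, edgeR adjusted p = 0.70; 0.56 without water replicate 1). In that comparison 0.00661% of genes were called. All Smad4 KO libraries after DSS had names with the prefix D, and none of those on water did. DSS and name prefix therefore cannot be told apart in Smad4 KO, for Muc1 or any other member. The difference between the DSS responses of the genotypes was 0.0007 on the log2 scale, with a 95% confidence interval of -0.72 to 0.72 (estimate -0.11 without Smad4 KO water replicate 1 and 0.46 with the name prefix block), so that a difference of up to that size in either direction remains possible. These comparisons share libraries and are not independent of each other.

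**Figure D3:**
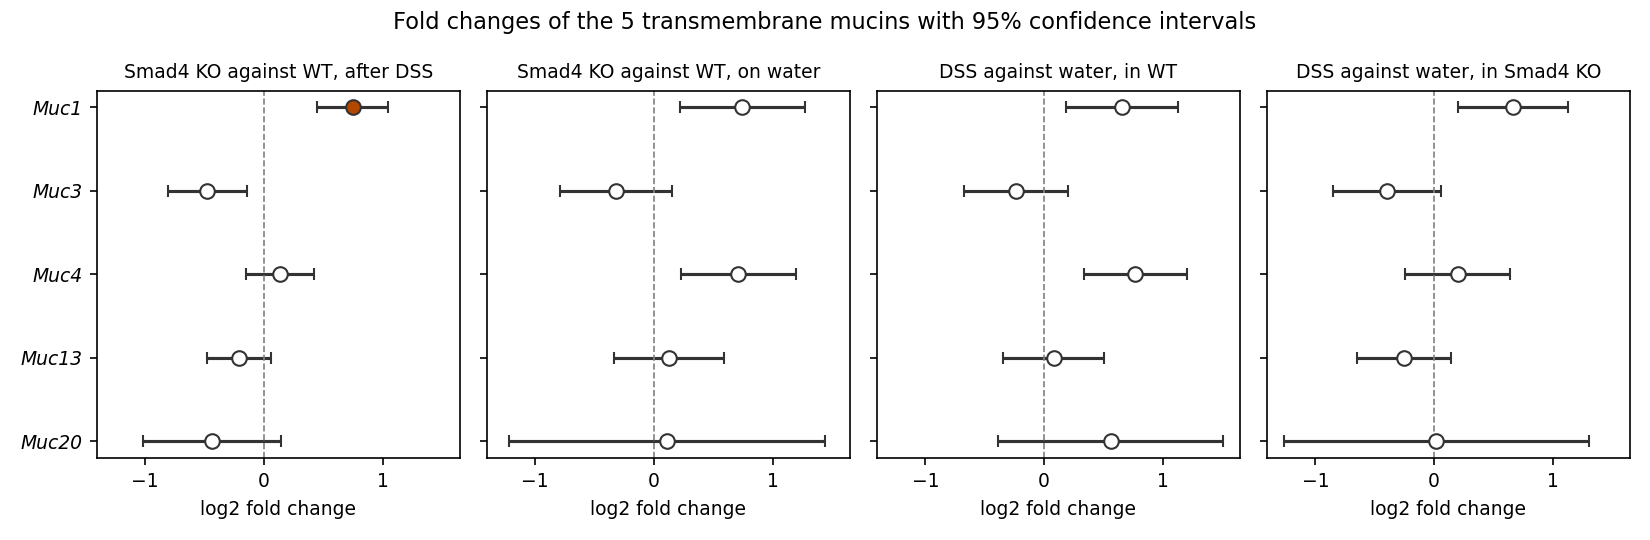
Log2 fold change (horizontal axes) of each transmembrane mucin (vertical axis) in the 4 comparisons, with 95% confidence intervals from edgeR. The only filled point, with an adjusted p below 0.05, is Muc1 in Smad4 KO against WT after DSS at 0.75, and the widest intervals are those of Muc20.

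Muc3, an enterocyte mucin with EGF-like domains beside the membrane, was lower in every Smad4 KO library than in every WT library after DSS, without passing the threshold. It had 2102, 1829 and 1998 CPM in Smad4 KO and 2128, 3254 and 2894 CPM in WT. The lowest WT library was only just above the highest Smad4 KO library. The log2 fold change was -0.48 (SE 0.15, edgeR adjusted p = 0.18), with a 95% confidence interval of -0.81 to -0.14, and 11.4% of genes had no overlap in this direction. DESeq2, which called 3.3% of genes, gave an adjusted p of 0.042 for Muc3, and edgeR without a filter on low counts, which called 2.23%, gave 0.036. Over 18 settings the log2 fold change ran from -0.63 to -0.34.

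On water, Muc3 had 2786, 2077, 2216 and 3322 CPM in the libraries labelled Smad4 KO and 2876, 3416, 3809 and 2884 CPM in WT. The groups overlapped through Smad4 KO replicate 4, and the log2 fold change was -0.32 (SE 0.22, edgeR adjusted p = 0.42; -0.35 without replicate 1). DSS against water gave -0.24 in WT (SE 0.20, edgeR adjusted p = 0.49) and -0.39 in Smad4 KO (SE 0.21, edgeR adjusted p = 0.77; -0.36 without water replicate 1). The estimates for Muc3 were below 0 in all 4 comparisons, which share libraries, and none was called by the edgeR test of the 2 groups. The Muc3 model has 1941 exon bases. Genes under 2 kb had a median of -0.26 for Smad4 KO against WT on water and -0.19 for DSS against water in WT. Their median was -0.01 for Smad4 KO against WT after DSS and 0.05 for DSS against water in Smad4 KO. With the trend with exon length removed, Muc3 had -0.44 for Smad4 KO against WT after DSS (edgeR adjusted p = 0.18).

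Gm3054, the small model upstream that holds a stretch rich in serine, threonine and proline, did not follow Muc3. It had 475, 766, 1179 and 74 raw counts in WT on water and 2274, 1000, 5018 and 180 in the libraries labelled Smad4 KO on water. After DSS it had 1911, 1472 and 3231 raw counts in WT and 2476, 2329 and 1946 in Smad4 KO. For every 100 Muc3 counts it had 0.274 to 2.52 counts in WT on water, 0.290 to 9.32 in Smad4 KO on water, 2.07 to 4.70 in WT after DSS and 4.94 to 6.27 in Smad4 KO after DSS. This ratio was higher in all 3 Smad4 KO libraries than in all 3 WT libraries after DSS. Its denominator, Muc3, was itself lower in every Smad4 KO library there. How often ratios of other genes separate in this way was not tested. These are ratios of counts, not scaled by exon length. Per kilobase of exon, Gm3054 ranged from 32.6 to 849 CPM/kb over the 14 libraries and Muc3 from 942 to 1962. The ratio spread widest on water, where replicate 4 of both genotypes was lowest and Smad4 KO replicate 3 highest. The CPM of Gm3054 itself overlapped between Smad4 KO and WT after DSS, with a log2 fold change of 0.24 (SE 0.26, edgeR adjusted p = 0.71). It passed the threshold in none of the 5 comparisons. Whether Gm3054 and Muc3 counts come from 1 transcript was not tested.

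**Figure D4:**
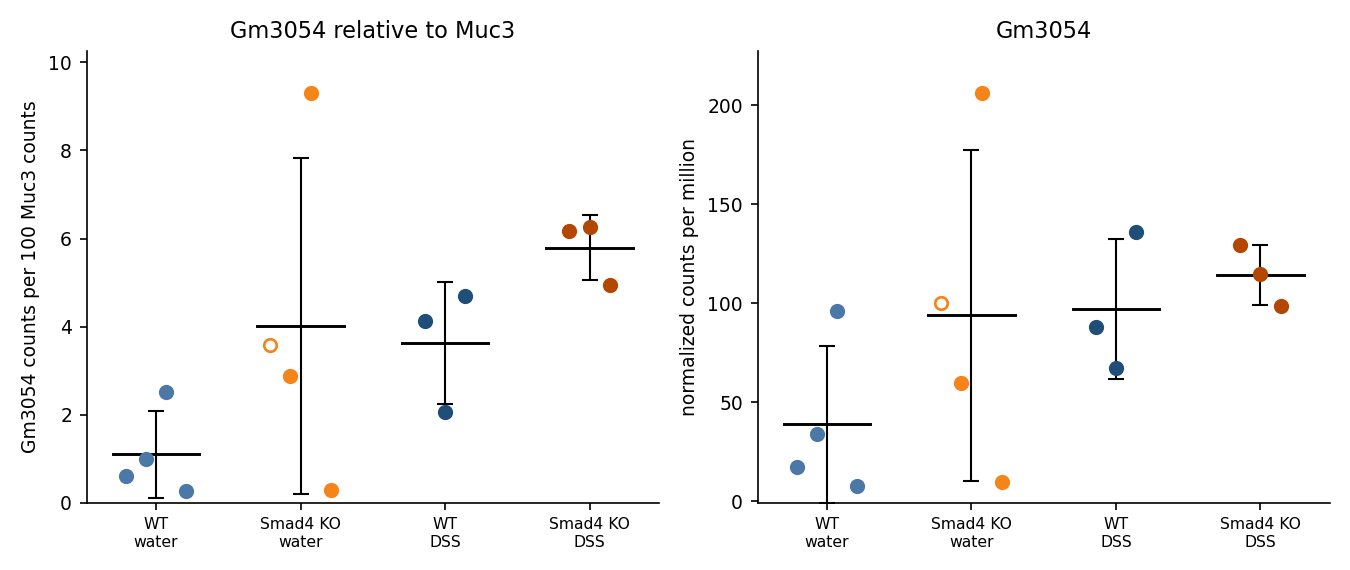
Gm3054 in each of the 14 libraries, as counts per 100 Muc3 counts (left) and as CPM (right), by group. Points are libraries, lines means and bars 1 SD (lower ends cut at the axis), and the open point is replicate 1 of the libraries labelled Smad4 KO on water. On water the ratio ran from 0.274 to 9.32, and in Smad4 KO after DSS from 4.94 to 6.27.

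Muc13, an enterocyte and goblet cell mucin with EGF-like domains, was the steadiest of the members. It had 3018, 3934, 2788 and 2607 CPM in WT on water and 2926, 2920.4, 3864 and 3781 CPM in the libraries labelled Smad4 KO on water. After DSS it had 2836, 3715 and 3256 CPM in WT and 2753, 2958 and 2757 CPM in Smad4 KO. Its highest library was 1.51 times its lowest, and all pairs of groups compared overlapped. Smad4 KO against WT gave a log2 fold change of -0.21 after DSS (95% confidence interval -0.48 to 0.06, edgeR adjusted p = 0.46) and 0.13 on water (-0.34 to 0.59, edgeR adjusted p = 0.77; 0.19 without Smad4 KO replicate 1). DSS against water gave 0.08 in WT (-0.34 to 0.51, edgeR adjusted p = 0.83) and -0.25 in Smad4 KO (-0.65 to 0.14, edgeR adjusted p = 0.84; -0.32 without water replicate 1). An antisense transcript model, Gm15657, covers 184 exon bases of Muc13 (6.06%), and the strand setting of the counting is not given in the sources used here.

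Muc4, a very large mucin that associates with ErbB2, was higher in the Smad4 KO than in the WT libraries on water, with overlap between the groups, and the difference was not called. It had 174, 224, 256 and 138 CPM in the libraries labelled Smad4 KO and 128, 107, 160.1 and 89.8 CPM in WT. Smad4 KO replicate 4 was below WT replicate 3. The log2 fold change was 0.71 (SE 0.22, edgeR adjusted p = 0.15), and 0.77 without Smad4 KO replicate 1 (SE 0.25, edgeR adjusted p = 0.18). The edgeR adjusted p was 0.040 with all 14 libraries in 1 model, where 8.9% of genes were called. Without Smad4 KO replicate 4, where 12.5% of genes were called, it was 0.029. With a block for the letter prefix of the library names the log2 fold change was 0.44 (SE 0.17, edgeR adjusted p = 0.17).

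After DSS, Muc4 had 201, 173 and 246 CPM in WT and 235, 240.2 and 204 CPM in Smad4 KO. The groups overlapped, and the log2 fold change was 0.13 (95% confidence interval -0.15 to 0.42, edgeR adjusted p = 0.66). In WT, every DSS library was above every water library, which was true of 12.8% of genes. The log2 fold change was 0.77 (SE 0.20, edgeR adjusted p = 0.087). DESeq2, which called 11.7% of genes in this comparison, gave an adjusted p of 0.0098. In Smad4 KO the log2 fold change was 0.20 (SE 0.20, edgeR adjusted p = 0.90), and 0.14 without water replicate 1. The difference between these responses was -0.58 (SE 0.30, edgeR adjusted p = 0.65; -0.63 without Smad4 KO water replicate 1, and -0.17 with the name prefix block), so the WT and Smad4 KO responses were not shown to differ.

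Muc4 has the longest exon sequence of the members, and long genes moved with it. Among the 1371 tested genes with over 8 kb of exon, the median log2 fold change was 0.32 for Smad4 KO against WT on water and 0.22 for DSS against water in WT, while among the 4046 genes under 2 kb it was -0.26 and -0.19. Without Smad4 KO replicate 1 the medians on water were 0.34 for genes over 8 kb and -0.27 for those under 2 kb. When the trend of each library with exon length was removed, Muc4 had a log2 fold change of 0.37 on water (edgeR adjusted p = 0.27; 0.41 without Smad4 KO replicate 1) and 0.54 in WT after DSS (edgeR adjusted p = 0.14). The Muc1 difference after DSS was 0.78 with the trend removed (edgeR adjusted p = 0.031). For Smad4 KO against WT after DSS the medians were 0.06 over 8 kb and -0.01 under 2 kb, so there was little trend to remove. The share of counts from mitochondrial genes was 30.6%, 32.8% and 21.4% in WT water replicates 3 and 4 and Smad4 KO water replicate 4, and at most 8.23% elsewhere. With mitochondrial genes left out, Muc1 after DSS had a log2 fold change of 0.75. The DSS libraries had mitochondrial shares of only 4.05% to 6.87%, so this step could hardly move that comparison. In Smad4 KO against WT on water, where the high shares lie, no member was called with mitochondrial genes left out.

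Muc20 was close to the limit of detection, with 6 to 89 raw counts per library. It had 3.29, 1.06, 1.22 and 2.03 CPM in WT on water and 3.30, 0.358, 2.22 and 2.35 CPM in the libraries labelled Smad4 KO on water. After DSS it had 2.57, 3.43 and 2.53 CPM in WT and 1.83, 2.41 and 2.03 CPM in Smad4 KO. The DSS groups did not overlap, which was true of 11.4% of genes with Smad4 KO lower. The log2 fold change was -0.44 with a 95% confidence interval of -1.02 to 0.15 (edgeR adjusted p = 0.47). On water the difference was 0.11 (SE 0.61, edgeR adjusted p = 0.93), and its sign turned without Smad4 KO replicate 1 (-0.21). DSS against water gave 0.56 in WT (SE 0.43, edgeR adjusted p = 0.44) and 0.02 in Smad4 KO (SE 0.58, edgeR adjusted p = 0.999; 0.34 without water replicate 1).

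Muc4 and Muc20 are neighbours on opposite strands, and their 3′ ends overlap at chr16:32777505-32782477. The overlap spans 4973 bases, and 627 exon bases are shared, 5.33% of those of Muc4 and 15.6% of those of Muc20. Without strand, reads from the shared exons cannot be assigned to 1 of the genes, and Muc4 had far more counts. The Muc20 level is therefore uncertain.

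**Figure D5:**
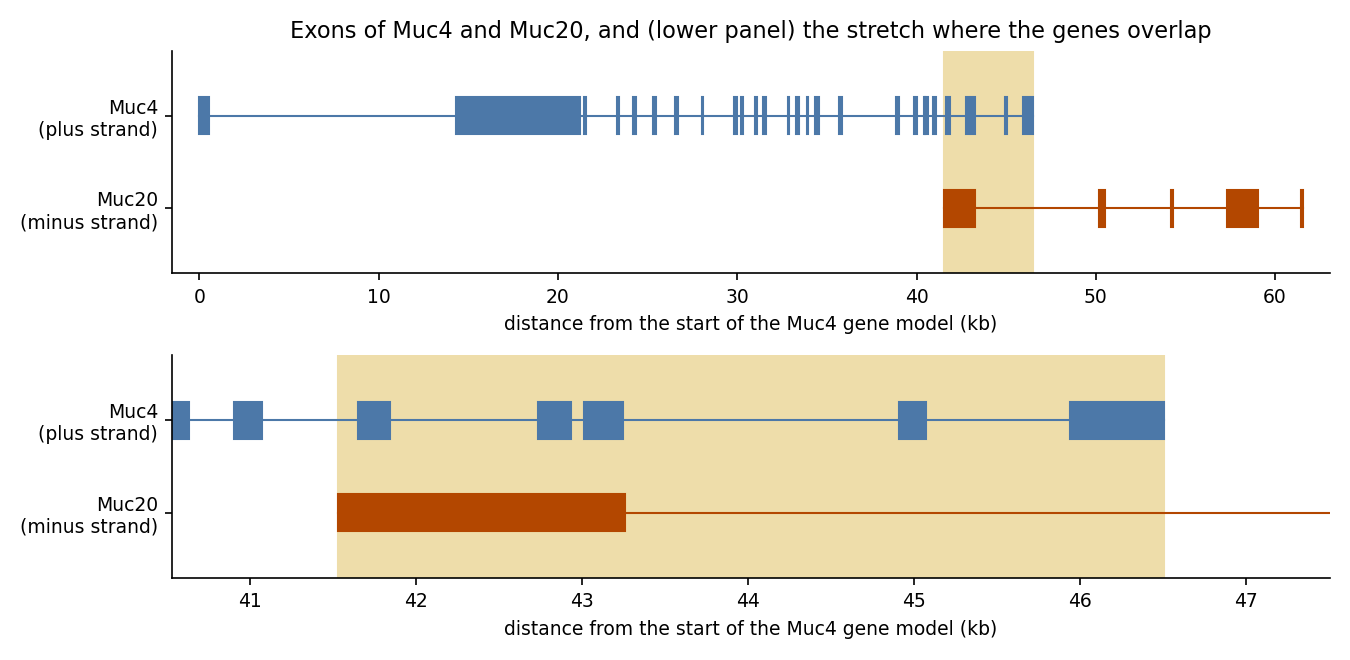
Exons (boxes) and introns (lines) of Muc4 on the plus strand and Muc20 on the minus strand, by distance from the start of the Muc4 model in kilobases. The shaded stretch of 4973 bases is where the genes overlap, and the lower panel enlarges it to show the last exon of Muc20 lying over exons of Muc4.

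The promoters of Muc1 and Muc4, the members with the largest positive fold changes, are shown for the sequence around their start sites. The windows are from RefSeq (GRCm38.p6), run from 250 bases before to 50 after the start site on the plus strand, and match mm9 exactly at chr3:89032728-89033027 for Muc1 and chr16:32735722-32736021 for Muc4. Both strands were searched. SMAD factors were represented by the half-site CAGAC and by the GC-rich site GGCGCC. STAT factors were represented by TTCNNNGAA, the Sp1 box by GGGCGG, the CDX homeobox factors by TTTATG, the TATA box by TATAAA and the AP-1 site by TGACTCA. Capitals mark every match, and no 2 matches overlapped.
Muc1 promoter: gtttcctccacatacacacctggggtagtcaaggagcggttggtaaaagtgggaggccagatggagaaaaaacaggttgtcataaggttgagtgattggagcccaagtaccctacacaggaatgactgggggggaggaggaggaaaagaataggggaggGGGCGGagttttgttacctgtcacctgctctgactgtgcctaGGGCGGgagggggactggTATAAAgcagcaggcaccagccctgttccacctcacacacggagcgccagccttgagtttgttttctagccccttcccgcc
Muc4 promoter: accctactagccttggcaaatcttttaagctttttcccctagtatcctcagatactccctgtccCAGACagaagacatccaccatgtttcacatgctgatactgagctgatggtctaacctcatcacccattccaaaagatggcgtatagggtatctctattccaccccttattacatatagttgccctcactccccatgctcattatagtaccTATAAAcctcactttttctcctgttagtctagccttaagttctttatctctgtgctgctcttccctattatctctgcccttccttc
The Muc1 window held GGGCGG at -91 and -49 and TATAAA at -31 from the start site, and the Muc4 window CAGAC at -186 and TATAAA at -36. Of 32851 RefSeq promoter windows of this length, 49.6% held CAGAC, 35.7% held the Sp1 box GGGCGG and 13.6% held TATAAA. These shares count a match anywhere in the window on either strand, and by them none of these motifs is rare. How often they lie at these positions, or occur more than once in a window, was not counted. GGCGCC was held by 11.9%, TTCNNNGAA by 8.30%, TTTATG by 11.9% and TGACTCA by 5.20%. The Muc3 window, which had no exact match in mm9, held in its RefSeq sequence CAGAC on the minus strand at -33 and TTCNNNGAA at 16. The Muc20 window held CAGAC on both strands, at 16 and -53. Muc13 has 2 windows, of which the first held TTCNNNGAA at -140, TTTATG at -180 and TGACTCA at -61 and the second CAGAC at -205 and TGACTCA at -179.

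Other genes of the mucin glycocalyx were read from 8 lists. Of their 69 tested genes, 2 (2.9%) were called in Smad4 KO against WT after DSS, where 1.04% of all genes were. Podxl, the podocalyxin sialomucin, rose with 7.44 ± 1.04 CPM (SD, n = 3) in Smad4 KO and 2.30 ± 0.51 CPM (SD, n = 3) in WT, 3.24-fold higher (edgeR adjusted p = 0.0072). Lgals3, the galectin that crosslinks mucin glycans at the apical surface, had 571 ± 65.8 CPM (SD, n = 3) in Smad4 KO and 928 ± 155 CPM (SD, n = 3) in WT and fell, with a log2 fold change of -0.70 (edgeR adjusted p = 0.040). Podxl was 1 of 5 tested genes among the other transmembrane mucins and sialomucins, whose median log2 fold change after DSS was 0.06, against 0.003 over all genes. Their most abundant gene, Cd164, an endolysosomal sialomucin, had a log2 fold change of 0.17 (edgeR adjusted p = 0.47). Muc12, Muc17 and Muc21 have no row under these names.

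The enzymes that build the O-glycans were not called in any comparison. Of 10 tested GalNAc transferases, which start the glycan chains, 8 were higher and 2 lower in Smad4 KO after DSS, and 8 higher and 2 lower on water; their median was 0.20 after DSS and 0.47 on water, on the log2 scale. Without Smad4 KO replicate 1, 7 were higher and 3 lower on water (median 0.52). Galnt4, the most abundant of them, had a log2 fold change of 0.19 after DSS (edgeR adjusted p = 0.44). Of 21 tested enzymes that extend and cap the chains, 11 were higher and 10 lower after DSS (median 0.004), and the most abundant, the sialyltransferase St6galnac6, had 0.004 (edgeR adjusted p = 0.99). The median log2 fold change of all genes was 0.003 after DSS and -0.007 on water. By exon length, the medians on water ran from -0.26 for genes under 2 kb to 0.32 for those over 8 kb. The GalNAc transferases were not compared with genes of their own length.

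The proteins around the mucins showed no called gene besides Lgals3. Of 9 tested sheddases and their inhibitors, 3 were higher and 6 lower in Smad4 KO after DSS (median log2 fold change -0.08), and Spint2, a protease inhibitor and the most abundant, had -0.24 (edgeR adjusted p = 0.39). Of 6 tested galectins, 3 were higher and 3 lower, and Lgals4, the most abundant, had 0.11 (edgeR adjusted p = 0.71). Of 8 tested receptor partners, 2 were higher and 6 lower (median -0.16), and Ctnnb1, which encodes β-catenin, had 0.09 (edgeR adjusted p = 0.73). Of 8 tested apical anchoring proteins, 2 were higher and 6 lower (median -0.23), and Ezr, the membrane linker ezrin, had -0.33 (edgeR adjusted p = 0.27). Of the 2 tested secreted mucins, Muc2 had -0.16 (edgeR adjusted p = 0.61), with 7062 to 8187 CPM in Smad4 KO and 7561 to 10035 CPM in WT.

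Marker genes of other cell states were read in the groups in which Muc1 was called, and several of their summed levels did not overlap. After DSS, the 7 surface colonocyte markers summed to 5156 to 5574 CPM in Smad4 KO and 5705 to 6942 CPM in WT, and the 7 goblet cell markers to 11655 to 12171 and 14186 to 15699 CPM. Among the goblet cell markers, Muc2, Tff3, Fcgbp and Zg16 had lower means in Smad4 KO, Agr2 (1805 against 1410.03 CPM in WT) and Spdef (128 against 103) had higher ones, and Clca1 was level (25.1 against 25.2). The 4 crypt base markers summed to 109.8 to 120.3 CPM in Smad4 KO and 44.6 to 77.5 CPM in WT. Of these, Smoc2 (78.4 against 27.1 CPM) and Lgr5 (12.3 against 4.83) had higher means in Smad4 KO, and Axin2 (21.3 against 26.4) and Ascl2 (3.22 against 5.68) lower ones. The 6 fibroblast markers summed to 7.21 to 12.97 CPM in Smad4 KO and 0.276 to 1.89 CPM in WT. The 6 leukocyte markers summed to 16.9 to 18.9 and 16.2 to 22.8 CPM, and the 5 squamous markers to 0.785 to 1.67 and 0.873 to 1.64 CPM, of which 2 were at 0 in all libraries. The 4 tuft cell markers summed to 26.9 to 27.8 CPM in Smad4 KO and 31.4 to 36.2 CPM in WT, the 7 epithelial markers to 15104 to 16081 and 16271 to 16862 CPM, and the 4 endothelial markers, near 0, to 0.262 to 0.394 and 0.594 to 0.674 CPM. The part of these cells in the mucin differences was not tested, and in stripped epithelium fewer cells of a type and less RNA per cell cannot be told apart.

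Across the 14 libraries, Muc1 and Muc4 varied together and Muc3 against them, as a description over libraries that share groups and normalization. Pearson's r of log2 CPM was 0.71 for Muc1 with Muc4, -0.68 for Muc1 with Muc3 and -0.65 for Muc3 with Muc4. Without Smad4 KO water replicate 1 these were 0.72, -0.68 and -0.65. The trend of the libraries with exon length was not removed from these levels. Muc4 has 11757 exon bases and Muc3 1941, and the part of that trend in the correlations was not tested. Muc13 and Muc20 had r between -0.04 and 0.09 with all other members except Muc13 with Muc3, at 0.37. Among 11566 genes with a mean of at least 50 counts, those most like Muc1 were Capn8 (r = 0.92), a calpain of mucous surface cells, Lrrk1 (0.90) and Abcc4 (0.90), an efflux transporter. Those most like Muc3 were Prdx6 (0.94), a peroxiredoxin, and Agpat4 (0.90), an acyltransferase. Muc4 was most like Ankrd17 (0.96), the corepressor gene Ncor1 (0.96) and Prkaa2 (0.96), a catalytic subunit of AMPK. Muc13 was most like Kcmf1 (0.84), Tgm3 (0.84), a transglutaminase, and Mansc1 (0.83), and Muc20 like Pygl (0.91), the liver form of glycogen phosphorylase, Gadd45gip1 (0.86) and Fam83g (0.85).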

How the data were processed

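Paired-end reads were mapped by the authors with Hisat2 (build mm9). Their deposited table holds raw counts per gene from featureCounts, as whole numbers and not normalized. The strand, multimapping and annotation settings are not given in the sources used here, and reads of low quality had been removed by the sequencing company. The table holds 37680 genes, 14001 of them with no count in any library. GENCODE M1 gave names and positions for 37310.

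Libraries were grouped by their deposited labels, and the library labelled Smad4 KO water replicate 1 was kept in its group. Counts were normalized with the TMM method. Genes that reached 10 counts in 3 or more libraries entered the quasi-likelihood test of edgeR 4.0.16, in models of the 2 groups compared, and of all 14 libraries for the difference of the DSS responses, with Benjamini-Hochberg adjustment over 15127 genes and a threshold of 0.05. Fold changes and intervals come from the same fits, and the method was tested on simulated data. Alternatives were all libraries in 1 model, DESeq2 1.42.0, other size factors and filters, blocks of replicate number or name prefix, and each library left out. A model of 13 libraries, the removal of length trends (also without Smad4 KO water replicate 1) and the removal of mitochondrial genes were added after seeing the data. R 4.3.3 and Python 3.11.15 were used.

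The members and the gene and marker lists were chosen with earlier results of these data known. Named from each list were up to 2 called genes per direction, by p, and the gene with the highest mean level. For each member, the 3 genes with the highest Pearson's r were named, except 1 that is not reported here. The marker lists for proliferating, enteroendocrine, tuft and smooth muscle cells were read too, and their summed levels were 344 to 733, 208 to 383, 23.4 to 36.2 and 11.8 to 21.7 CPM over all libraries. Protein sequences were not used here.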

Additional observations from a re-analysis of the deposited data

How the results depend on the processing

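Of 485 values of the members under other settings, 445 kept direction and side of the threshold, 13 newly passed it, 7 lost it and 20 changed sign. The 7 lost were all Muc1 after DSS. The call of Muc1 made the count of members called in Smad4 KO against WT after DSS 1, and this was 0 with all 14 libraries in 1 model and with 13 libraries, 2 with DESeq2 and with no filter on low counts, and 0 to 1 with each library left out. On water it was 0, and 2 with all 14 libraries in 1 model and with 13, 1 with the replicate block and 0 to 2 with each library left out. In WT, DSS against water, it was 0, and 2 with DESeq2 and with the replicate block.

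The number of genes called after DSS was 157, and 2 with all 14 libraries, 7 with 13, 499 with DESeq2, 502 with no filter, 71 with the name prefix block and 54 to 129 with each library left out (lowest without Smad4 KO replicate 3). On water it was 1, and 1347, 1195, 768, 54 and 489 in the same order, 655 with the replicate block and 1 to 1884 with each library left out (1884 without Smad4 KO replicate 4, 17 without replicate 1, and 13 without it and without the length trend). In WT, DSS against water, it was 0, and 2 with 13 libraries, 1777 with DESeq2, 253 with no filter, 25 without mitochondrial genes, 21 with upper-quartile factors, 20 with the name prefix block, 110 with the replicate block and 0 to 777 with each library left out (777 without WT water replicate 2, 94 without replicate 4, 1 without WT DSS replicate 3). In Smad4 KO it was 1, and 10 with all 14 libraries, 6 with 13, 71 with DESeq2, 3 without the length trend, 10 with no filter, 24 with the replicate block and 1 to 3 with each library left out. For the difference of the DSS responses it was 1, and 8 with DESeq2, 2 with no filter and 1 to 5 with each library left out. The cause was not tested.

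Signs changed for values near 0. Muc20 on water (0.11) was -0.21 with 13 libraries, -0.24 without the length trend and Smad4 KO replicate 1, -0.056 with the replicate block and -0.21 to 0.54 with each library left out. Muc13 in WT, DSS against water (0.08), was -0.086 with the name prefix block and -0.019 to 0.23 with each library left out, and Muc20 in Smad4 KO (0.02) was -0.32 to 0.34. The Muc1 difference of the DSS responses was -0.11 without the length trend, -0.23 without it and Smad4 KO water replicate 1, 0.46 with the name prefix block and -0.12 to 0.22 with each library left out. That of Muc4 (-0.58) was -0.17 with the name prefix block. Same-numbered replicates did not deviate together (r from -0.08 to 0.06, and 0.35 for replicate 4 on water), so the numbers are not taken as pairs. The replicate 4 libraries of WT and Smad4 KO on water share the name prefix MP and high mitochondrial shares (32.8% and 21.4%). Replicates 1 and 2 of WT and Smad4 KO after DSS share the prefix D, with r of -0.07 and -0.08. The replicate block gave an edgeR adjusted p of 0.036 for Muc4 on water, and 0.046 for Muc1 and 0.042 for Muc4 in WT, DSS against water. The name prefix block could not be fitted for DSS against water in Smad4 KO, where no prefix occurs in both groups. With 6 to 89 counts, depth limits Muc20.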
